A study of Zea mays with 18 samples.

Results

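The 381 genes described here fell in leaves of the maize inbred line W22 after 1 h of mild heat stress and were still low at the recovery sample. They were chosen from 36321 genes by their mean log2(FPKM + 1) over the 3 W22 libraries of each time point, which had to be at least 1 below the 0 h mean both at 1 h and at R2h. FPKM, the unit of the deposited values, is the number of sequenced fragments of a gene scaled to its transcript length and to all mapped fragments of the library. RNA-seq of leaf lamina covered 18 libraries, 3 for each of 2 genotypes at 0 h (normal conditions), 1 h (mild heat stress for 1 h) and R2h (2 h of recovery from mild heat stress). The genotypes were *nf-ya1*, a line of the UniformMu population in the W22 background that carries a *Mu* insertion in *ZmNF-YA1* (Zm00001eb005690) and was selfed, and W22 itself. All plants were raised in the same chamber regime, and the *nf-ya1* plants represent a single insertion line. The protocol text of the deposit names longer heat and recovery times than the sample labels, whose times are used here, and the labels do not give the length of heat before R2h. The study's methods state one for a qRT-PCR time course with a recovery sample of the same name, but not for the sequenced libraries. No library is labelled as from plants kept unheated until the later times, so heat and time of day cannot be told apart. *ZmNF-YA1* itself had 15.6 ± 4.82 FPKM in the libraries labelled *nf-ya1* and 24.2 ± 2.08 FPKM in W22 at 0 h (SD, n = 3 each), and it ranged over 27.03 to 43.1 FPKM in *nf-ya1* and 39.1 to 49.6 FPKM in W22 at 1 h, and over 8.97 to 12.9 FPKM in *nf-ya1* and 11.3 to 15.1 FPKM in W22 at R2h. The study states that the mutant lacks this transcript, and it reports a low level by qRT-PCR. Reads of the gene were not missing from the libraries labelled *nf-ya1*, but these values do not show whether the transcript was whole. The *nf-ya1* values below are those of libraries that carry that label.

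Heat stress lowers the transcripts of many genes for growth, photosynthesis and secondary metabolism while chaperone genes are raised, and many of the lowered genes regain their level when the temperature returns to normal. Among the pathways that draw heavily on leaf carbon is phenylpropanoid metabolism, which starts with the removal of ammonia from phenylalanine or tyrosine and feeds lignin and flavonoids. NF-Y factors bind CCAAT elements in promoters as a trimer of an A, a B and a C subunit, and *ZmNF-YA1* encodes an A subunit.

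The W22 values of these genes chose them and are given as a description only. At 0 h their mean W22 FPKM had a median of 11.7 (1.24 to 2786), and 50 of the 381 reached 100 FPKM. The mean log2 difference from 0 h in W22 had a median of −1.87 at 1 h and −1.39 at R2h, and it was −2 or lower in 163 genes at 1 h and in 57 at R2h. All 3 W22 libraries lay below all 3 at 0 h in 347 of the 381 genes at 1 h and in 340 at R2h, which the choice largely fixed (59.5% and 14.6% of all genes tested). The genes were on average lower at 1 h than at R2h, and 296 had a higher W22 mean at R2h than at 1 h while 71 had a lower one. For comparison, 4766 genes met the limit in W22 at 1 h but not at R2h, and 286 met it at R2h but not at 1 h. Just inside the limit at R2h were the genes Zm00001eb337410, Zm00001eb046960 and Zm00001eb301260, with R2h differences of −1.004, −1.007 and −1.008. Just outside it were Zm00001eb281970 and Zm00001eb252690, with R2h differences of −0.998 and −0.997, and Zm00001eb415960, with a 1 h difference of −0.997.

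The 3 W22 libraries at 0 h were not alike for these genes. Replicate 3 lay more than 1 log2 unit below both other replicates in 104 of the 381 genes, against 264 (1.17%) of the 22572 genes that reached 1 FPKM in 3 or more libraries. Without that library the rule would have chosen 511 genes, of which 359 are among the 381. Without replicate 1 it would have chosen 365 genes, 332 of them among the 381, and without replicate 2 338 genes, 304 of them among the 381. Across the series the FPKM of a library added up to between 804977 and 928910, with 24637 to 28580 genes detected. Of 21 annotated chlorophyll A-B binding genes, which mark green tissue, 14 averaged at least 100 FPKM in each of the 6 groups, while no gene matched the markers of mesophyll, bundle sheath or guard cells in the annotation used here, so leaf cell types were not checked. In leaf RNA, fewer cells of a type and less RNA per cell cannot be told apart.

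**Figure D1:**
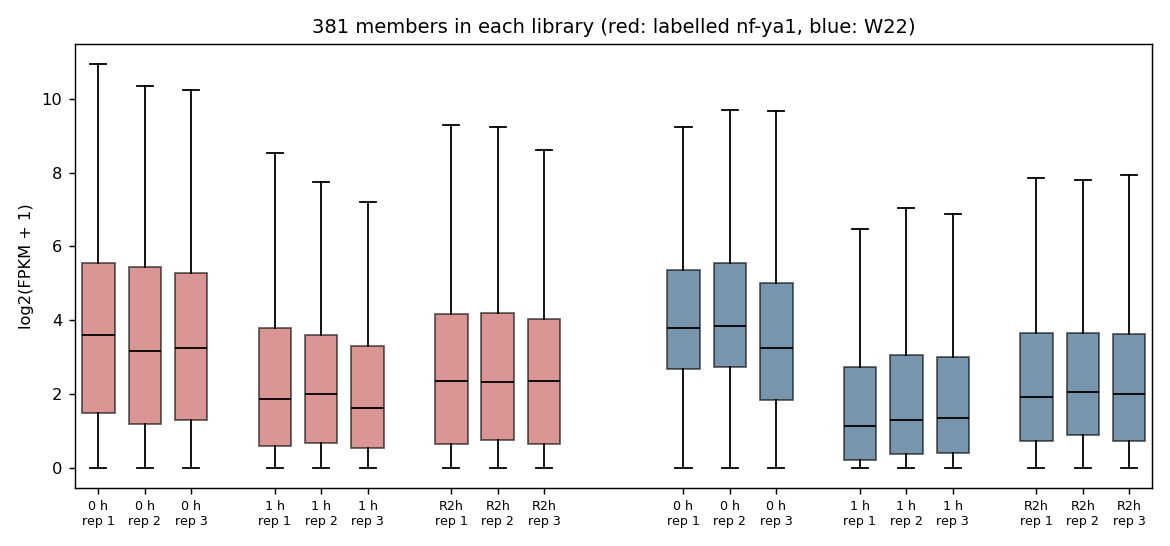
Boxes show the median and quartiles of log2(FPKM + 1) over the 381 genes in each of the 18 libraries, with whiskers to the farthest gene within 1.5 box lengths and the libraries labelled *nf-ya1* (red) left of W22 (blue). The W22 libraries at 0 h have medians of 3.79, 3.84 and 3.25, the lowest in replicate 3, and in both genotypes the 1 h medians lie below those at R2h.

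The libraries labelled *nf-ya1* took no part in the choice, so the same time contrasts could be tested in them. Between 1 h and 0 h, 187 of the 381 genes (49.1%) were called lower in *nf-ya1* by limma on log2(FPKM + 1), at a Benjamini-Hochberg adjusted p of 0.01 or less over all genes tested and a log2 fold change of at least 1 in size. Of all 22572 genes tested, 43.7% were called lower in that comparison, so on the deposited scale the share among the 381 at 1 h was near the background, which changed with the scaling of the libraries as given below. At R2h against 0 h, 136 of the 381 (35.7%) were called lower, against a background of 11.6%. The genes that met the limit in W22 at 1 h but not at R2h gave 559 of 4766 (11.7%) in the same comparison. That set was thus at the background at R2h and the 381 genes above it. The filter on low values left 364 of the 381 in the test, and 17 were too low in too many libraries to be tested.

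Of the 381 genes, 119 (31.2%) were called lower in *nf-ya1* at both times, against 8.6% of all genes tested. A further 68 were called lower only at 1 h and 17 only at R2h, beside 7923 and 668 of the 22572 genes tested. The remaining 177, among them the 17 that were not tested, were called lower at neither time, beside 12039 of the 22572. The median log2 fold change of the 381 in *nf-ya1* was −1.39 at 1 h and −0.84 at R2h, beside −0.92 and −0.09 over all genes tested. Relative to that shift of all genes the 381 were lower by a median of −0.47 at 1 h and −0.74 at R2h. All 3 *nf-ya1* libraries at R2h lay below all 3 at 0 h in 184 of the 381 genes, where the share over all genes tested was 29.8%, and all 3 at 1 h did so in 211, where it was 62.6%. Called higher in *nf-ya1* were 12 of the 381 at 1 h (background 7.62%) and 11 at R2h (background 6.89%).

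At R2h against 1 h, 73 of the 381 genes (19.2%) were called higher in *nf-ya1*, with a background of 36.6%, and 26 (6.82%) lower, with a background of 8.2%. Of the genes that met the limit at 1 h only, 3115 of 4766 (65.4%) were called higher. A fit of the 9 *nf-ya1* libraries alone called 172 of the 381 lower at 1 h (background 40.3%) and 113 at R2h (background 8.12%). The scale of the libraries bears on these counts. With median-ratio scaling 106 of the 381 (27.8%) were called lower at 1 h, when the background was 11%, and 26 higher, when it was 15.5%. With quantile normalization 130 (34.1%) were called lower at 1 h, against a background of 13.2%, and 25 higher, against 13.7%. So with either scaling the share called lower at 1 h was not near the background, unlike on the deposited scale. At R2h the share called lower was above the background on all 3 scales, with 121 (31.8%) by median-ratio scaling (background 9.05%) and 125 (32.8%) by quantile normalization (background 9%). The median change of the 381 at R2h against 1 h was 0.28 on the deposited scale. It turned to −0.28 with median-ratio scaling, so its direction depends on the scaling. The share called higher in that comparison was 8.4% with median-ratio scaling (background 10.4%) and 9.71% with quantile normalization (background 13.9%). The share called lower was 16.0% (background 16.0%) and 13.1% (background 13.5%). So with either scaling the share called higher lay nearer its background than on the deposited scale.

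The treat test, which asks whether a change exceeds the fold limit rather than 0, called 109 of the 381 lower at 1 h (background 16.5%) and 50 at R2h (background 2.97%). Among the genes described below it did not call the R2h changes of Zm00001eb247630, Zm00001eb077220, Zm00001eb306030, Zm00001eb234730, Zm00001eb174420, Zm00001eb087980, Zm00001eb408350 and Zm00001eb419390. It did not call the 1 h changes of Zm00001eb185250, Zm00001eb163860, Zm00001eb006770, Zm00001eb158800, Zm00001eb148750, Zm00001eb369770 and Zm00001eb256000, nor either change of Zm00001eb089390, Zm00001eb167710 and Zm00001eb167720.

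**Figure D2:**
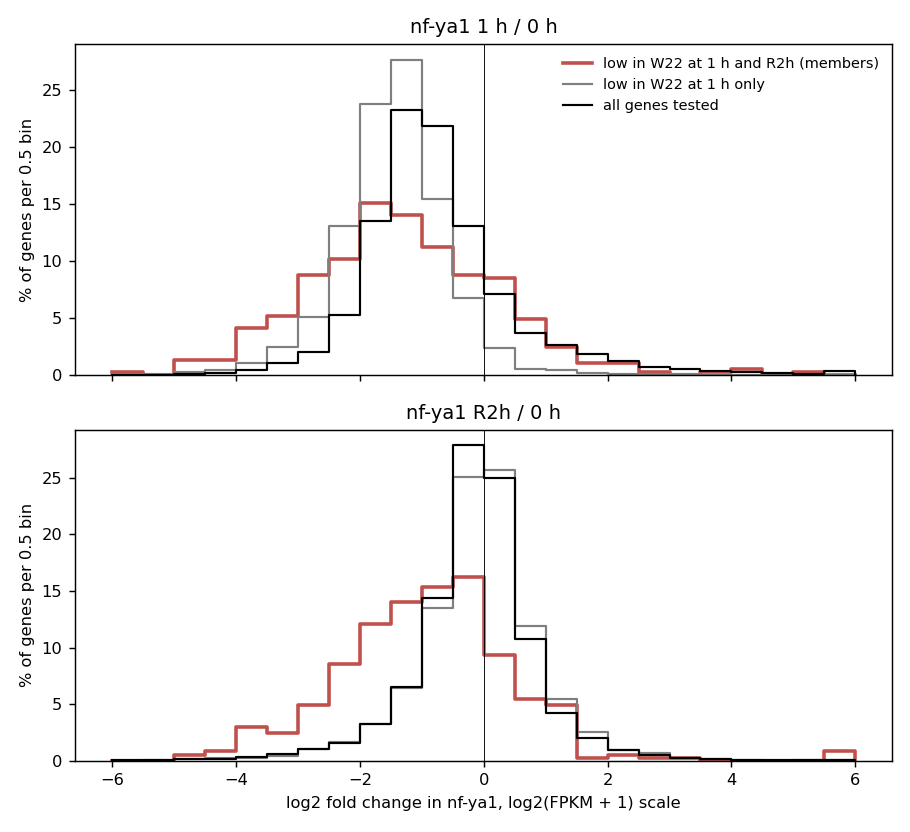
Steps show the percentage of genes in bins of 0.5 of the log2 fold change in *nf-ya1*, for 1 h against 0 h (upper panel) and R2h against 0 h (lower panel), with values beyond ±6 placed in the end bins. At 1 h the 381 genes (red), the 4766 genes that met the limit in W22 at 1 h only (grey) and all genes tested (black) have medians of −1.39, −1.44 and −0.92, and at R2h −0.84, −0.03 and −0.09.

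The genes in which W22 0 h replicate 3 stood apart were counted separately, without a test. In 123 of the 381 genes that library had under 50% of the FPKM of each other W22 library at 0 h. In these the *nf-ya1* mean at 0 h was at a median of 22.2% of the W22 mean, with 28 genes (22.8%) called lower at 1 h and 21 (17.1%) at R2h. In the other 258 genes the *nf-ya1* mean was at a median of 87.6% of the W22 mean at 0 h, with 159 genes (61.6%) called lower at 1 h and 115 (44.6%) at R2h. This grouping was made after the values were seen, and it uses W22 0 h values, which also chose the genes. Without W22 0 h replicate 3 in the choice, 238 of 511 genes (46.6%) were called lower in *nf-ya1* at 1 h and 183 (35.8%) at R2h. Over all genes tested 43.7% were called lower at 1 h and 11.6% at R2h. At 1 h the 46.6% was thus near the share of all genes tested, and the 22.8% was below it.

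Over all 381 genes the *nf-ya1* mean at 0 h was at least 1 log2 unit below the W22 mean in 139 and at least 1 above it in 66, and the difference had a median of −0.51, against 0.24 over all genes tested. At 1 h and at R2h the medians of that difference were 0.18 and 0.06. Because the choice asked for high values in W22 at 0 h, these differences are a description. In 65 genes the *nf-ya1* mean at 0 h was below 1 FPKM and in 16 all 3 libraries were listed at 0, and the 187 and 136 genes called lower all came from the 316 with a mean of at least 1 FPKM.

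Names were available for few of these genes. The annotation used here, an excerpt in alphabetical order of the study's list of differentially expressed genes, covered 65 of the 381 (17.1%). The counts of annotated genes below thus come from a list chosen on these samples. They are no independent evidence of direction or of how many genes of a family changed. The shares over all genes tested that stand beside them are not a like background, and the share among all annotated genes is not given here. Of the 32 gene lists, 11 held at least 1 of the 381 genes. The largest share was in phenylpropanoid and flavonoid synthesis, with 9 of its 19 annotated genes. Of the 19, 10 (52.6%) were called lower in *nf-ya1* at 1 h, near the 43.7% of all genes tested, and 11 (57.9%) at R2h, beside 11.6%, none higher, with median log2 fold changes of −1.50 and −2.01. Of those called lower, 8 at 1 h and 9 at R2h were among the 381 genes, so these shares mostly count the same genes again.

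Aromatic amino acid lyases, the enzymes that open phenylpropanoid metabolism, made up 8 of the 9 phenylpropanoid genes. Only 9 genes carried that annotation in all, so 8 of 9 stayed low at recovery in W22. In *nf-ya1* 7 of the 8 were called lower at 1 h and 8 of 8 at R2h, beside 43.7% and 11.6% of all genes tested. The 8 had median log2 fold changes of −3.002 and −3.21, beside −0.92 and −0.09 over all genes tested. Their summed mean FPKM was 1325 at 0 h, 289 at 1 h and 197 at R2h in *nf-ya1*, against 425 at 0 h, 74.4 at 1 h and 156 at R2h in W22. The genes lie in neighbouring numbers in the gene set, and reads from near-identical copies could have been divided among them, so a value of a single copy is less certain than their sum.

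The most abundant lyase in *nf-ya1*, Zm00001eb185240, had 344, 426 and 835 FPKM at 0 h, 139, 87.2 and 51.1 FPKM at 1 h and 49.05, 37.5 and 36.3 FPKM at R2h in *nf-ya1*. The W22 libraries had 160.2, 165 and 123.5 FPKM at 0 h, 18.2, 20.8 and 26.2 FPKM at 1 h and 28.6, 53.6 and 48.4 FPKM at R2h. No library at 1 h or R2h reached the lowest 0 h library of its genotype, and the fall in *nf-ya1* had a log2 fold change of −2.53 (adjusted p 9.4e-06 by limma, SE 0.35) at 1 h and −3.58 (adjusted p 1.4e-06, SE 0.35) at R2h. Zm00001eb247630 had 302, 416 and 436 FPKM at 0 h, 90.3, 101 and 106 FPKM at 1 h and 136, 91.6 and 100.2 FPKM at R2h in *nf-ya1*, and 149, 155 and 96.97 FPKM at 0 h, 22.9, 31.1 and 29.6 FPKM at 1 h and 53.1, 74.2 and 67.5 FPKM at R2h in W22. Its groups did not overlap between 0 h and either later time in either genotype, with log2 fold changes of −1.93 (adjusted p 6.5e-07 by limma, SE 0.21) and −1.81 (adjusted p 6.3e-06, SE 0.21) in *nf-ya1*. With median-ratio scaling the 1 h calls of Zm00001eb247630 and of another abundant copy, Zm00001eb185250, missed the threshold.

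The deepest falls were in 3 less abundant copies. Zm00001eb247650 had 1.72, 1.13 and 1.15 FPKM at R2h and 58.8, 79.8 and 53.95 FPKM at 0 h in *nf-ya1*, against 1.60, 2.52 and 2.23 FPKM at R2h and 12.8, 14.2 and 3.66 FPKM at 0 h in W22. Its log2 fold change in *nf-ya1* was −4.79 (adjusted p 3e-08 by limma, SE 0.32) at R2h, and that of Zm00001eb077230 was −4.14 (adjusted p 1e-06, SE 0.40). Zm00001eb185260 fell by 3.77 on the log2 scale in *nf-ya1* at R2h, so these copies were left at single-digit FPKM in both genotypes. The lyase that differed in timing was Zm00001eb077220, with 23.7, 52.98 and 55.4 FPKM at 0 h, 43.6, 43.1 and 42.7 FPKM at 1 h and 10.3, 14.03 and 9.78 FPKM at R2h in *nf-ya1*. Its W22 values were 27.6, 30.3 and 23.4 FPKM at 0 h, 1.68, 2.77 and 3.15 FPKM at 1 h and 6.83, 5.71 and 5.96 FPKM at R2h. At 1 h it thus overlapped its 0 h values in *nf-ya1* (log2 fold change 0.06, adjusted p 0.83 by limma, SE 0.25) but not in W22, although with median-ratio scaling it was called higher at 1 h (1.21), and at R2h it was lower (−1.79, adjusted p 4.7e-05, SE 0.25). The difference between the genotypes was not tested.

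**Figure D3:**
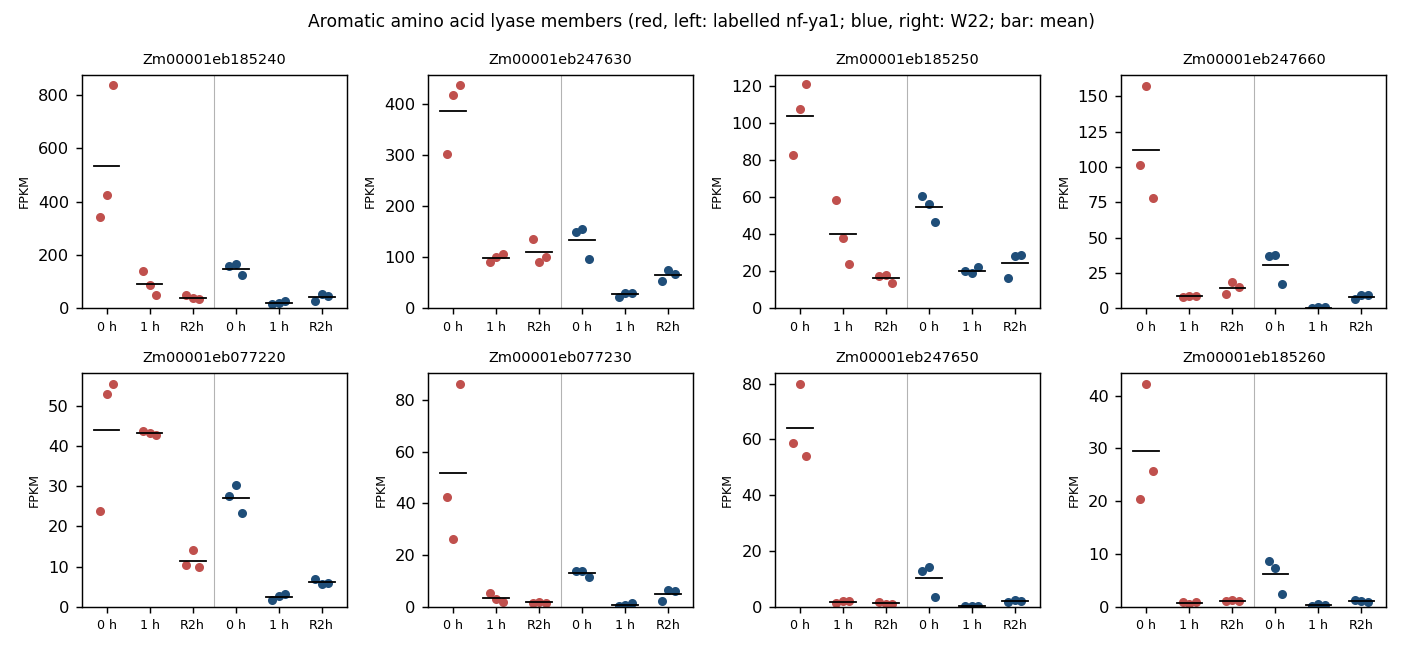
Points are the FPKM of single libraries and bars the mean of 3 for the 8 aromatic amino acid lyase genes, at 0 h, 1 h and R2h in the libraries labelled *nf-ya1* (red, left) and in W22 (blue, right), on linear axes that start at 0. In *nf-ya1* every copy lies lower at R2h than at 0 h, and Zm00001eb077220 is the copy that overlaps its 0 h values at 1 h.

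Single members of families with roles near that pathway were also among the 381, picked after their values were seen. Of 7 annotated chalcone isomerases 1 was among them, and of the 7, 2 were called lower in *nf-ya1* at each time, with medians of −0.25 at 1 h and −0.57 at R2h. Of 6 annotated class I-like O-methyltransferases 1 was among them, and of the 6, 3 were called lower at 1 h and 2 at R2h, with medians of −0.94 and 0.03. Most of the annotated genes of both families thus did not pass the test at R2h. Over all genes tested 43.7% were called lower at 1 h and 11.6% at R2h. Chalcone isomerase, which closes the ring of flavonoids, was represented by Zm00001eb163860, with 98.3, 122 and 132 FPKM at 0 h, 50.6, 30.6 and 19.2 FPKM at 1 h and 22.4, 27.5 and 23.3 FPKM at R2h in *nf-ya1*. In W22 it had 15.98, 16.6 and 13.7 FPKM at 0 h, 0.98, 0.86 and 0.55 FPKM at 1 h and 7.22, 3.81 and 4.29 FPKM at R2h. Every *nf-ya1* library was higher than every W22 library of its time, while the fall in *nf-ya1* was −1.87 (adjusted p 1.2e-05 by limma, SE 0.27) at 1 h and −2.21 (adjusted p 1e-05, SE 0.27) at R2h on the log2 scale. A class I-like SAM-dependent O-methyltransferase, Zm00001eb199470, of the family that methylates lignin precursors, had 6.20, 5.21 and 5.12 FPKM at R2h and 27.7, 18.2 and 36.2 FPKM at 0 h in *nf-ya1*, with a log2 fold change of −2.08 (adjusted p 1.6e-06 by limma, SE 0.21). W22 had 0.64, 1.17 and 0.88 FPKM at R2h and 2.60, 3.46 and 2.88 FPKM at 0 h. The *nf-ya1* libraries at R2h thus stood above the W22 libraries at 0 h, although the gene had fallen in *nf-ya1*. With median-ratio scaling the call of Zm00001eb163860 at 1 h missed the threshold.

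All 3 annotated cobalamin-independent methionine synthases were called lower in *nf-ya1* at both times, beside 43.7% of all genes tested at 1 h and 11.6% at R2h. Zm00001eb218320 is among these enzymes, which make the methionine from which the methyl donor SAM is formed. It had 89.3, 70.4 and 239.5 FPKM at 0 h, 11.6, 12.2 and 13.6 FPKM at 1 h and 16.9, 14.7 and 15.8 FPKM at R2h in *nf-ya1*, and 51.02, 48.96 and 41.97 FPKM at 0 h, 8.18, 8.22 and 10.6 FPKM at 1 h and 9.17, 17.3 and 14.3 FPKM at R2h in W22. The 0 h libraries of both genotypes stood above all later ones, and the log2 fold changes in *nf-ya1* were −3.11 (adjusted p 4.5e-07 by limma, SE 0.32) at 1 h and −2.79 (adjusted p 6.9e-06, SE 0.32) at R2h.

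Cellulose synthase genes with a RING-type zinc finger, the feature of the catalytic subunits of cellulose synthesis, were 3 of the 381 of 8 so annotated. All 3 were called lower in *nf-ya1* at both times, with median log2 fold changes of −2.60 at 1 h and −2.57 at R2h. In the wider list of cellulose and wall synthesis 24 of 36 annotated genes (66.7%) were called lower at 1 h and 21 (58.3%) at R2h. Over all genes tested the shares were 43.7% and 11.6%, not a like background for genes listed as changed in the study. In that list 2 and 1 were called higher, and the medians were −2.23 and −1.96. Zm00001eb306030 had 189, 245 and 285 FPKM at 0 h, 58.1, 39.2 and 24.5 FPKM at 1 h and 59.4, 41.6 and 59.3 FPKM at R2h in *nf-ya1*. Its W22 values were 63.03, 44.05 and 54.9 FPKM at 0 h, 7.20, 16.1 and 9.34 FPKM at 1 h and 21.8, 29.9 and 23.1 FPKM at R2h. At 0 h the *nf-ya1* libraries lay above those of W22, and in both genotypes neither later time overlapped 0 h (log2 fold change in *nf-ya1* −2.14, adjusted p 3.9e-05 by limma, SE 0.30 at R2h).

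The other cellulose synthases, Zm00001eb303110 and Zm00001eb283110, had larger differences between the genotypes at 0 h. Zm00001eb303110 had 109.9, 135 and 193 FPKM in *nf-ya1* and 22.4, 17.6 and 18.9 FPKM in W22 at 0 h, and 30.4, 17.9 and 22.5 FPKM in *nf-ya1* and 7.55, 8.56 and 8.28 FPKM in W22 at R2h. Zm00001eb283110 had 95.5, 106 and 175 FPKM in *nf-ya1* and 14.6, 10.8 and 12.3 FPKM in W22 at 0 h, and 21.98, 9.96 and 17.1 FPKM in *nf-ya1* and 4.30, 5.11 and 4.14 FPKM in W22 at R2h. In *nf-ya1* they changed at R2h by −2.57 (adjusted p 1.3e-05 by limma, SE 0.32) and −2.88 (adjusted p 6.2e-06, SE 0.33) on the log2 scale. The call of Zm00001eb303110 at 1 h missed the threshold with median-ratio scaling.

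**Figure D4:**
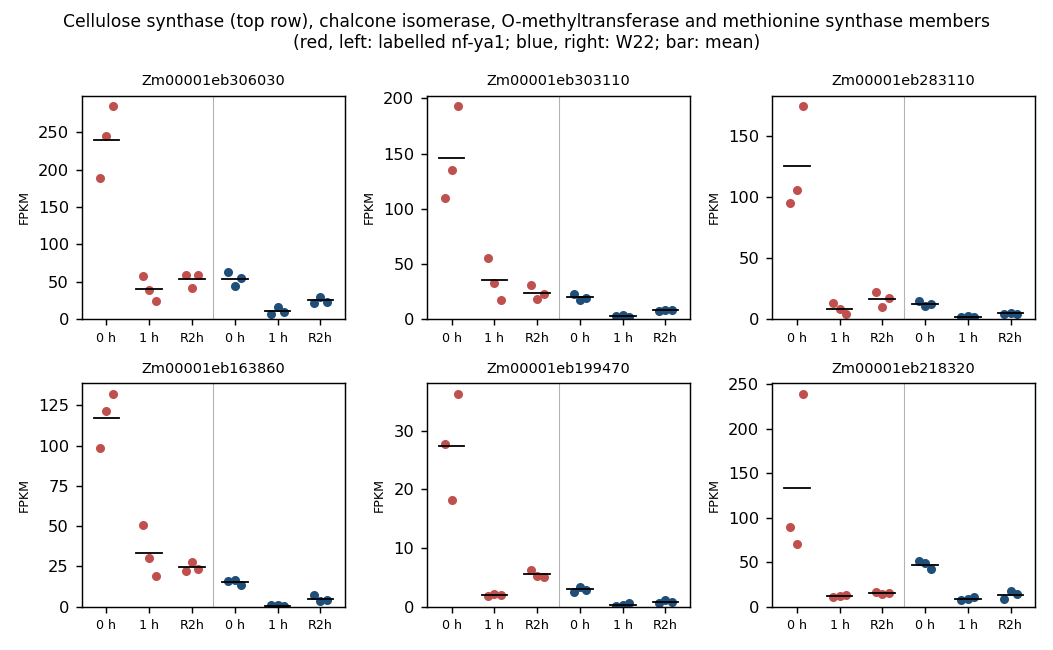
Points are the FPKM of single libraries and bars the mean of 3, at 0 h, 1 h and R2h in the libraries labelled *nf-ya1* (red, left) and in W22 (blue, right), for 3 cellulose synthase genes (top row) and for chalcone isomerase, O-methyltransferase and methionine synthase (bottom row). In all 6 genes the *nf-ya1* libraries at 0 h lie above those of W22, and both genotypes are lower at R2h than at 0 h.

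A few genes of other enzymes, picked after their values were seen, also fell in *nf-ya1*. Zm00001eb367400, an acetyl-CoA carboxylase, makes malonyl-CoA for fatty acids and flavonoids. It had 237, 309 and 261 FPKM at 0 h, 46.8, 69.5 and 65.8 FPKM at 1 h and 29.6, 28.2 and 32.5 FPKM at R2h in *nf-ya1*, and 109, 105 and 122 FPKM at 0 h, 31.2, 22.8 and 18.2 FPKM at 1 h and 39.9, 36.5 and 32.3 FPKM at R2h in W22. The libraries of *nf-ya1* were lowest at R2h (log2 fold change −3.11, adjusted p 6.3e-09 by limma, SE 0.18), those of W22 at 1 h. Zm00001eb223980, annotated by an ATP-binding domain of carbamoyl-phosphate synthetase, had 19.2, 15.9 and 20.7 FPKM at R2h and 128, 173 and 192 FPKM at 0 h in *nf-ya1* (−3.06, adjusted p 3e-09 by limma, SE 0.17), against 15.7, 17.2 and 16.1 FPKM at R2h and 61.1, 46.1 and 70.4 FPKM at 0 h in W22. Its groups did not overlap in either genotype. With median-ratio scaling the call of Zm00001eb367400 at 1 h missed the threshold.

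Zm00001eb233720 belongs to the AMP-dependent synthetases and ligases, a family that activates acids such as coumarate and fatty acids with coenzyme A. It had 191, 237 and 336 FPKM at 0 h, 37.1, 37.2 and 33.7 FPKM at 1 h and 19.6, 17.4 and 18.5 FPKM at R2h in *nf-ya1*, and 144, 152 and 126 FPKM at 0 h, 17.4, 16.7 and 17.02 FPKM at 1 h and 20.2, 36.5 and 32.5 FPKM at R2h in W22. No later library overlapped 0 h, and the change in *nf-ya1* was −2.75 (adjusted p 1e-08 by limma, SE 0.20) at 1 h and −3.67 (adjusted p 2.9e-09, SE 0.20) at R2h on the log2 scale. Zm00001eb089390, an ATP-sulfurylase, the enzyme that begins sulfate assimilation, had 13.4, 15.8 and 14.99 FPKM at R2h and 53.99, 31.7 and 33.9 FPKM at 0 h in *nf-ya1* (−1.34, adjusted p 6.3e-05 by limma, SE 0.20). W22 had 26.6, 22.9 and 24.97 FPKM at R2h and 70.3, 63.4 and 55.2 FPKM at 0 h. In contrast to the genes above, its *nf-ya1* libraries at 0 h lay below those of W22, and its 1 h call missed the threshold with median-ratio scaling and with quantile normalization.

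Alcohol dehydrogenases, a family that includes enzymes of fermentation and of lignin precursors, gave 3 of the 381 genes of 14 annotated. Of the 14, 11 were called lower and 1 higher in *nf-ya1* at 1 h, and 5 lower and 4 higher at R2h. Over all genes tested 43.7% were called lower and 7.62% higher at 1 h, and 11.6% and 6.89% at R2h. Zm00001eb088800 had 401, 433 and 275 FPKM at 0 h, 5.77, 6.19 and 6.62 FPKM at 1 h and 33.1, 26.3 and 25.2 FPKM at R2h in *nf-ya1*, and 73.1, 85.3 and 40.5 FPKM at 0 h, 4.12, 8.40 and 4.52 FPKM at 1 h and 16.3, 15.8 and 17.9 FPKM at R2h in W22. Its change in *nf-ya1* was −5.66 (adjusted p 1.1e-10 by limma, SE 0.26) at 1 h and −3.65 (adjusted p 5.6e-08, SE 0.26) at R2h on the log2 scale, so it had regained part of its level. Zm00001eb234730 had 166, 139 and 146 FPKM at R2h and 309, 305 and 380.4 FPKM at 0 h in *nf-ya1* (−1.13, adjusted p 1.2e-05 by limma, SE 0.14), against 71.02, 96.9 and 95.03 FPKM at R2h and 189, 207 and 181 FPKM at 0 h in W22. Zm00001eb006770 was called lower in *nf-ya1* at 1 h (−1.84, adjusted p 9.6e-06 by limma, SE 0.26) but not at R2h (−0.36, adjusted p 0.28 by limma, SE 0.26), and its 1 h call missed the threshold with median-ratio scaling and with quantile normalization.

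ABC transporters, membrane pumps that export lipids, hormones and secondary metabolites, gave 6 of the 381 genes of 68 annotated. In *nf-ya1* 5 of the 6 were called lower at 1 h and 5 at R2h, while of the 68 annotated genes 33 (48.5%) were called lower at 1 h, near the background of 43.7%, and 15 (22.1%) at R2h, beside 11.6%. The median log2 fold changes of the 6 were −1.88 and −1.58, and those of the 68 were −1.36 and −0.61. Zm00001eb004340 had 103, 80.05 and 58.5 FPKM at 0 h, 6.51, 10.5 and 12.3 FPKM at 1 h and 19.2, 17.3 and 18.9 FPKM at R2h in *nf-ya1*. The W22 libraries had 141, 132 and 131 FPKM at 0 h, 23.7, 28.2 and 29.3 FPKM at 1 h and 57.5, 65.2 and 62.96 FPKM at R2h. The *nf-ya1* libraries lay below those of W22 at every time, and the change at R2h was −2.03 (adjusted p 1.2e-06 by limma, SE 0.20). Zm00001eb277540 had 6.80, 6.13 and 7.63 FPKM at R2h and 55, 55.6 and 109 FPKM at 0 h in *nf-ya1* (−3.17, adjusted p 2.9e-06 by limma, SE 0.34), against 2.33, 3.17 and 3.17 FPKM at R2h and 10.9, 8.89 and 11.5 FPKM at 0 h in W22. Zm00001eb091420 was called lower in *nf-ya1* at 1 h (−1.84, adjusted p 5.2e-08 by limma, SE 0.16) but not at R2h (−0.46, adjusted p 0.025 by limma, SE 0.16), and its 1 h call missed the threshold with median-ratio scaling and with quantile normalization.

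Some abundant genes had fallen in *nf-ya1* at 1 h but did not pass the test at R2h, while W22 had not regained its 0 h level. The choice required that W22 side, and the difference between the genotypes was not tested. Zm00001eb158800, a carbonic anhydrase, the enzyme that supplies bicarbonate to the first carboxylation of C4 photosynthesis, had 1801, 1310.4 and 786 FPKM at 0 h, 626, 475 and 447 FPKM at 1 h and 1215, 749.8 and 970.4 FPKM at R2h in *nf-ya1*. Its W22 values were 1534, 1539.7 and 1340.5 FPKM at 0 h, 459, 462 and 379 FPKM at 1 h and 697, 744 and 720.3 FPKM at R2h. The *nf-ya1* libraries overlapped at R2h and 0 h, with −1.27 (adjusted p 0.00024 by limma, SE 0.25) at 1 h and −0.36 (adjusted p 0.26, SE 0.25) at R2h on the log2 scale. The 1 h call missed the threshold with median-ratio scaling, and without *nf-ya1* 0 h replicate 1 the log2 fold change of Zm00001eb158800 was −0.99.

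Hsp20 proteins are small chaperones that are usually raised by heat, and of 43 genes annotated with the Hsp20 domain 1 was among the 381. Of the 43, 26 were called higher and 7 lower in *nf-ya1* at 1 h, beside 7.62% and 43.7% of all genes tested. That gene, Zm00001eb125010, had 197, 132 and 202 FPKM at 0 h, 26.5, 21.9 and 15.1 FPKM at 1 h and 255, 201 and 207 FPKM at R2h in *nf-ya1*. In W22 it had 297.5, 329 and 244 FPKM at 0 h, 20.1, 32.1 and 40.1 FPKM at 1 h and 68.4, 71.2 and 77.9 FPKM at R2h. At R2h all *nf-ya1* libraries were above all W22 libraries, and the change in *nf-ya1* was −3.02 (adjusted p 3e-08 by limma, SE 0.24) at 1 h and 0.33 (adjusted p 0.28, SE 0.24) at R2h. Zm00001eb046960, with a citrate transporter-like domain, had 179, 107 and 124.2 FPKM at R2h and 163, 169 and 195 FPKM at 0 h in *nf-ya1* (−0.39, adjusted p 0.13 by limma, SE 0.20), against 129, 90.7 and 98.8 FPKM at R2h and 214, 217 and 205 FPKM at 0 h in W22. The groups overlapped in *nf-ya1* and not in W22, whose fall at R2h was required by the choice. For neither Zm00001eb125010 nor Zm00001eb046960 was the difference between the genotypes tested. Zm00001eb116580, an AAA-type ATPase, fell in *nf-ya1* at 1 h (−2.85, adjusted p 2.4e-08 by limma, SE 0.22) and had a log2 fold change of −0.74 (adjusted p 0.014, SE 0.22) at R2h, which did not pass the threshold.

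A group of 8 genes with domains found in pathogenesis-related proteins was low in *nf-ya1* before the heat. The Bet v I, Barwin, type 1 chitin-binding and CAP domains, which occur in defence proteins of leaves under attack, gave these 8 of the 381 genes of 17 annotated, a grouping made after the values were seen. Their summed mean FPKM was 9.22 at 0 h, 36.0 at 1 h and 26.3 at R2h in *nf-ya1*, against 308 at 0 h, 28.2 at 1 h and 27.2 at R2h in W22. The choice asked for high values in W22 at 0 h, so the gap between the genotypes at 0 h is a description. None of the 7 that could be tested was called lower in *nf-ya1*. All 8 averaged a few FPKM or less there before the heat, so little room was left for a fall. Of the 17 annotated genes, 4 were called lower and 4 higher at 1 h, and 3 lower and 4 higher at R2h, all those called lower being among the 9 outside the 381. Over all genes tested 43.7% were called lower and 7.62% higher at 1 h, and 11.6% and 6.89% at R2h. In each of the 8, W22 0 h replicate 3 was the lowest of its group, and its part in their choice was not tested beyond the counts without that library given above.

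Zm00001eb014000, with the Bet v I domain, had 1.93, 1.54 and 4.62 FPKM at 0 h, 0.75, 4.15 and 5.36 FPKM at 1 h and 5.41, 2.34 and 3.27 FPKM at R2h in *nf-ya1*. In W22 it had 125, 141 and 27.7 FPKM at 0 h, 1.91, 8.25 and 20.3 FPKM at 1 h and 6.26, 12.3 and 10.1 FPKM at R2h. The *nf-ya1* libraries at all times were below every W22 library at 0 h, and the log2 fold change at 1 h was 0.15 (adjusted p 0.85 by limma, SE 0.70). Of its neighbours, Zm00001eb014010 had 0.57, 0.11 and 0.22 FPKM in *nf-ya1* and 93.5, 97.6 and 21.3 FPKM in W22 at 0 h. Zm00001eb013990 had 2.15, 1.80 and 1.77 FPKM in *nf-ya1* and 71.9, 86.99 and 19.3 FPKM in W22 at 0 h. Both were thus near 0 in *nf-ya1* before the heat. Their *nf-ya1* changes at R2h were 0.04 (adjusted p 0.97 by limma, SE 0.67) and 1.06 (adjusted p 0.17, SE 0.61), neither past the threshold. Zm00001eb078730, with a chitin-binding domain, had 0.14, 0.21 and 0.07 FPKM at R2h and 1.03, 0.40 and 0 FPKM at 0 h in *nf-ya1*, against 0.14, 0.55 and 0.34 FPKM at R2h and 36.4, 37.3 and 6.23 FPKM at 0 h in W22. Zm00001eb299370, with the CAP domain, had 0.42, 0 and 3.07 FPKM in *nf-ya1* and 19.9, 21.9 and 4.45 FPKM in W22 at 0 h.

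The 2 Barwin genes among the 381 rose in *nf-ya1*, while their fall in W22 was required by the choice. The difference between the genotypes was not tested, and the third annotated Barwin gene was called lower in *nf-ya1* at both times. Zm00001eb167720 had 1.11, 0.23 and 2.92 FPKM at 0 h, 4.01, 16.2 and 22.9 FPKM at 1 h and 11.3, 6.71 and 8.57 FPKM at R2h in *nf-ya1*, and 38.8, 43.9 and 10.1 FPKM at 0 h, 0.24, 0.68 and 0.90 FPKM at 1 h and 1.97, 2.19 and 1.84 FPKM at R2h in W22. No *nf-ya1* library at 1 h or R2h overlapped 0 h, with 2.55 (adjusted p 0.00077 by limma, SE 0.57) at 1 h and 2.16 (adjusted p 0.0062, SE 0.57) at R2h on the log2 scale. Without *nf-ya1* 1 h replicate 1 the 1 h change of Zm00001eb167720 was 3.23. The R2h call of Zm00001eb167720 missed the threshold when any of the *nf-ya1* 0 h replicates 1 and 2 or the 3 R2h libraries was left out, with log2 fold changes of 2.14, 1.75, 1.99, 2.33 and 2.17, with the replicate number as a block, with no filter on low values and in a fit of the *nf-ya1* libraries alone. Zm00001eb167710 had 1.81, 0 and 1.97 FPKM at 0 h, 3.64, 12.3 and 15.1 FPKM at 1 h and 9.66, 6.49 and 7.69 FPKM at R2h in *nf-ya1* (2.30, adjusted p 0.00057 by limma, SE 0.50 at 1 h, 2.13, adjusted p 0.0027, SE 0.50 at R2h). The W22 values of Zm00001eb167710 were 4.94, 4.63 and 0.89 FPKM at 0 h, 0.10, 0.23 and 0.34 FPKM at 1 h and 0.80, 0.94 and 0.74 FPKM at R2h, so R2h overlapped 0 h in W22. Its R2h call missed the threshold without *nf-ya1* 0 h replicate 2 (1.62) or without *nf-ya1* R2h replicate 1 (1.99), and in the fit of the *nf-ya1* libraries alone or with a pseudocount of 0.01.

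**Figure D5:**
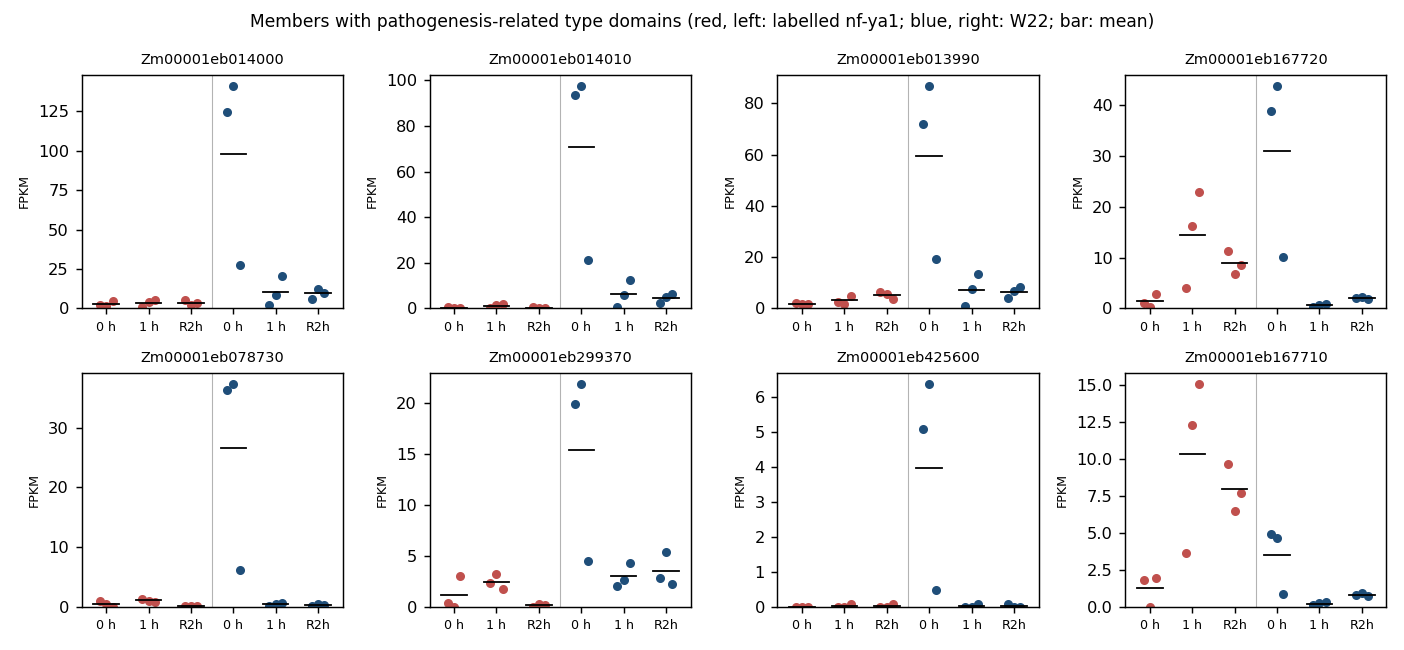
Points are the FPKM of single libraries and bars the mean of 3 for the 8 genes with Bet v I, Barwin, chitin-binding or CAP domains, at 0 h, 1 h and R2h in the libraries labelled *nf-ya1* (red, left) and in W22 (blue, right). In each gene W22 replicates 1 and 2 at 0 h are the highest W22 points and replicate 3 (rightmost of its group) is lower, and both Barwin genes lie higher in *nf-ya1* at 1 h and R2h than at 0 h.

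Changes of opposite sign in the genotypes, a difference that was not tested, were also seen in a ferredoxin and an agglutinin. Their fall in W22 was required by the choice. Zm00001eb174420, with a 2Fe-2S ferredoxin-type domain of the proteins that pass electrons on from photosystem I, had 107, 53.4 and 444 FPKM at 0 h, 377, 271 and 388 FPKM at 1 h and 966, 866 and 832 FPKM at R2h in *nf-ya1*. Its W22 values were 255, 324 and 219.6 FPKM at 0 h, 66.7, 108 and 116 FPKM at 1 h and 93.7, 128 and 144 FPKM at R2h. The R2h libraries of *nf-ya1* lay above all its 0 h libraries (log2 fold change 2.69, adjusted p 0.00056 by limma, SE 0.51) and those of W22 below, although the call was lost in the fit of the *nf-ya1* libraries alone. The 0 h libraries of *nf-ya1* spread widely, and the R2h change of Zm00001eb174420 was 3.53 without 0 h replicate 3 and 2.02 without 0 h replicate 2. Zm00001eb087980, with an agglutinin domain of sugar-binding lectins, had 281, 118 and 349 FPKM at 0 h, 327, 521 and 735 FPKM at 1 h and 454, 789 and 612 FPKM at R2h in *nf-ya1*. In W22 it had 1049, 1110.2 and 813 FPKM at 0 h, 289, 495 and 441 FPKM at 1 h and 363, 557 and 494 FPKM at R2h. The *nf-ya1* libraries at 0 h lay below those of W22, while at R2h the groups overlapped. The change in *nf-ya1* was 1.41 (adjusted p 0.0066 by limma, SE 0.38) at R2h, a call that Zm00001eb087980 lost with quantile normalization, with no filter, in the fit of the *nf-ya1* libraries alone and without *nf-ya1* 0 h replicate 2 (0.94), R2h replicate 2 (1.22) or R2h replicate 3 (1.40). In all, 18 of the 381 genes at 1 h and 23 at R2h had every *nf-ya1* library above 0 h and every W22 library below it. The choice largely fixed the W22 side, which held in 347 and 340 of the 381. Over all genes tested that side held in 13421 genes at 1 h and 3302 at R2h. Of these, 157 and 334 had every *nf-ya1* library above 0 h, or 0.696% and 1.48% of all genes tested. The last 2 shares are thus not a like background for the 381.

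The other lists held few of the 381 genes. These were 4 of 54 annotated genes of cuticle and lipids, 3 of 30 of light harvesting, 2 of 8 of carbon fixation and 1 each of 110 AP2/ERF, 52 clock and CO-like, 48 amino acid transport, 20 receptor-like kinase and 95 heat shock genes, and 21 lists held none, 10 of them without any gene in the annotation used here. In *nf-ya1* at R2h the numbers of annotated genes called lower were 14 for cuticle and lipids, 0 for light harvesting, 1 for carbon fixation, 36 for AP2/ERF, 5 for the clock, 9 for amino acid transport, 4 for receptor-like kinases and 17 for heat shock. Called higher there were 2, 5, 0, 6, 7, 7, 2 and 26 genes in the same order of lists. Over all genes tested 11.6% were called lower and 6.89% higher at R2h, which the 9.62% lower of the clock list and the 12.5% of carbon fixation were near. The lists of nitrogen uptake and of sugar and starch, with no gene among the 381, had 3 of 5 and 1 of 2 annotated genes called higher at R2h and none lower.

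Zm00001eb408350, an amino acid transporter, fell in *nf-ya1* at R2h (−2.17, adjusted p 4.5e-05 by limma, SE 0.31), as did Zm00001eb369770, with the bulb-type lectin domain of receptor-like kinases (−1.99, adjusted p 5.5e-06, SE 0.23), and Zm00001eb352570, an AP2/ERF transcription factor (−1.58, adjusted p 9.5e-08, SE 0.12). Zm00001eb148750, with the CCT domain of CONSTANS-like regulators of clock and light responses, was called lower at 1 h (−1.37, adjusted p 9.5e-06 by limma, SE 0.19) and not at R2h, and the 1 h call missed the threshold with median-ratio scaling and with quantile normalization. Among the light-harvesting genes, Zm00001eb105200, another ferredoxin, had 95.8, 0.70 and 27.7 FPKM in *nf-ya1* and 51.7, 53.8 and 50.96 FPKM in W22 at 0 h. Zm00001eb301260, a chlorophyll A-B binding protein, had 86.9, 3.83 and 3.59 FPKM in *nf-ya1* and 13.8, 22.4 and 41.9 FPKM in W22 at 0 h, and neither passed the test in *nf-ya1* at either time, with standard errors of 1.19 and 0.86. Their replicates thus spread widely in *nf-ya1*, and without *nf-ya1* 0 h replicate 2 Zm00001eb105200 was called lower at 1 h (−3.16).

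An alpha carbonic anhydrase, Zm00001eb037940, and 3 genes annotated by a domain of inhibitors, lipid transfer proteins and seed storage proteins passed the test at neither time. Zm00001eb117000 had 13.7, 1.01 and 18.9 FPKM in *nf-ya1* and 11.6, 13.3 and 2.11 FPKM in W22 at 0 h. Zm00001eb053780 had 0.58, 1.23 and 2.45 FPKM in *nf-ya1* and 8.73, 8.94 and 1.57 FPKM in W22 at 0 h. Zm00001eb273530 had 0.80, 0.26 and 6.86 FPKM in *nf-ya1* and 6.17, 7.04 and 1.31 FPKM in W22 at 0 h. In these 3 as well W22 replicate 3 was the lowest of its group. Zm00001eb117000 was called lower at R2h without *nf-ya1* 0 h replicate 2 (−3.46). Zm00001eb273530 was called higher at 1 h with median-ratio scaling (2.08), with quantile normalization (2.14) and without *nf-ya1* 0 h replicate 3 (2.02). Zm00001eb283460, an acid phosphatase of class B, had 3.71, 0 and 0.08 FPKM in *nf-ya1* and 46.02, 51.5 and 21.6 FPKM in W22 at 0 h, with a change in *nf-ya1* of 1.48 (adjusted p 0.043 by limma, SE 0.56) at R2h that did not pass the threshold but did so without *nf-ya1* 0 h replicate 1 (2.21).

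Of the 381 genes, 316 had no name in the annotation used here, the most abundant ones among them. Zm00001eb264880 had 1973, 1221 and 637 FPKM at 0 h, 102, 97.8 and 87.3 FPKM at 1 h and 1231, 1057 and 1134 FPKM at R2h in *nf-ya1*. The W22 libraries had 1642, 1799.9 and 1758 FPKM at 0 h, 139, 122 and 131 FPKM at 1 h and 947, 787 and 833 FPKM at R2h. So it was low in both genotypes at 1 h, and at R2h the *nf-ya1* libraries lay within the range of their 0 h values. Zm00001eb401220 had 1475, 929 and 665 FPKM at 0 h, 143, 142 and 139.5 FPKM at 1 h and 116, 162 and 134 FPKM at R2h in *nf-ya1*, and 763, 827 and 895 FPKM at 0 h, 305, 266 and 293 FPKM at 1 h and 148, 206 and 202 FPKM at R2h in W22. Its W22 libraries were lowest at R2h, while those of *nf-ya1* overlapped between 1 h and R2h, with a change in *nf-ya1* of −2.83 (adjusted p 1.4e-07 by limma, SE 0.22). Zm00001eb172450 likewise fell further by R2h in W22, with 420.1, 504.3 and 476 FPKM at R2h and 687, 751 and 744 FPKM at 1 h, and its change in *nf-ya1* was −2.09 (adjusted p 1e-06 by limma, SE 0.20) at R2h. Zm00001eb157900, the highest of the 381 in W22 at 0 h, had 1017, 1069.9 and 795 FPKM in *nf-ya1* and 2632, 2819 and 2907 FPKM in W22 at 0 h, and did not pass the fold threshold in *nf-ya1* at either time (−0.88, adjusted p 0.00019 by limma, SE 0.17 at 1 h). It was called lower at 1 h with quantile normalization (−1.57) and without *nf-ya1* 0 h replicate 3 (−1.01) or 1 h replicate 3 (−1.04), while median-ratio scaling gave 0.29.

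Some of the largest falls and rises in *nf-ya1* were also in genes without a name. Zm00001eb081610 had 1.35, 2.12 and 1.5 FPKM at R2h and 76.9, 84.02 and 43.7 FPKM at 0 h in *nf-ya1* (−4.66, adjusted p 1e-09 by limma, SE 0.23), against 3.51, 2.68 and 3.71 FPKM at R2h and 11.1, 9.95 and 7.14 FPKM at 0 h in W22. Zm00001eb256000 had 104, 166 and 311 FPKM in *nf-ya1* and 5.05, 6.31 and 5.79 FPKM in W22 at 0 h, and 23.1, 18.99 and 19.9 FPKM in *nf-ya1* and 2.32, 0.68 and 1.27 FPKM in W22 at R2h. Zm00001eb384110 had 145, 104 and 55.2 FPKM in *nf-ya1* and 5.54, 3.84 and 3.43 FPKM in W22 at 0 h, and 35.2, 75.01 and 57.2 FPKM in *nf-ya1* and 1.88, 1.06 and 1.34 FPKM in W22 at R2h. In both genes every *nf-ya1* library was above every W22 library at 0 h and at R2h. Zm00001eb256260 rose in *nf-ya1* at 1 h, with 11.9, 17.8 and 19.5 FPKM at 1 h and 0.11, 0.11 and 0.09 FPKM at 0 h (3.95, adjusted p 3.7e-10 by limma, SE 0.21). Zm00001eb419390 rose in *nf-ya1* at R2h, with 69.4, 67.2 and 62.7 FPKM at R2h and 5.99, 4.55 and 11.2 FPKM at 0 h in *nf-ya1* (3.11, adjusted p 0.00053 by limma, SE 0.58), against 27.4, 30.8 and 34.2 FPKM at R2h and 339.9, 405 and 83.1 FPKM at 0 h in W22.

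The choice of some genes rested on a single library. In 13 of the 381 genes 1 W22 library at 0 h stood more than 1 log2 unit above both others. Zm00001eb105250 had 246, 172 and 218 FPKM at R2h and 3.71, 0 and 0 FPKM at 0 h in *nf-ya1*. In W22 it was listed at 0 in all 3 libraries at 1 h and had 5.24, 54.6 and 2.07 FPKM at 0 h. Zm00001eb434910 and Zm00001eb439980 held identical values in all 18 libraries, so their reads cannot be told apart. Each was listed at 138, 128 and 129 FPKM at R2h and at 0 in all 3 libraries at 0 h in *nf-ya1*, and at 0, 49.8 and 0 FPKM at 0 h in W22. Another 2 genes, Zm00001eb419160 and Zm00001eb442370, also held identical values in all libraries, so 4 of the 381 genes have a copy that these values do not separate.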

How the data were processed

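RNA-seq of W22 and *nf-ya1* leaves was done by BGI on the BGISEQ-500 platform, and clean reads were aligned to B73 V5, a maize reference genome, and its genes. The aligner, the quantification tool and their versions are not given in the sources used here. The authors deposited 1 table of FPKM values for 18 libraries, rounded to 2 decimals. No read numbers were used, so the depth behind a value is unknown and its precision is the spread of the 3 libraries of a group, which the labels call repeats without naming separate plants, so p-values measure the spread between these samples. The genes and lists were chosen with earlier results of these data known.

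Values were taken as log2(FPKM + 1), which understates changes of low genes. In R 4.3.3 with limma 3.58.1, all 18 libraries entered a linear model with a mean for each group and an intensity trend, for the 22572 of 36321 genes that reached 1 FPKM in 3 or more libraries. P-values (two-sided) were adjusted by Benjamini and Hochberg over all genes tested in each of 3 contrasts within *nf-ya1*, and calls used the thresholds of the study, an adjusted p of 0.01 and a log2 fold change of 1. An exact permutation test of 3 libraries against 3 cannot go below p = 0.1. The fit was tested on simulated data that held no shift common to all genes. That test thus cannot bear on how the scaling of the libraries changes the calls. No test was made within W22 or between genotypes, since the W22 values chose the genes. Alternatives were pseudocounts of 0.1 and 0.01, no filter, a minimum mean of 5 FPKM, quantile normalization, median-ratio scaling, only the 9 *nf-ya1* libraries, a replicate block, no trend, an adjusted p of 0.05, the treat test and each library left out. After the data were seen, the choice of genes without W22 0 h replicate 3 and with either other scaling was added.

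The table pairs no IDs with names. Domain names came from 1996 IDs of an annotation excerpt, and 0 IDs matched the RefSeq gene table, so no sequence is shown. Genes named in the text are, for each list, the 3 with the highest W22 mean at 0 h, with the most abundant, the most changed and those nearest the limit, where unnamed genes could be left out. The remaining annotated genes in the text, among them the other lyases, the single enzymes, the alcohol dehydrogenase and pathogenesis-related genes, were chosen after their values were seen. Plots used Matplotlib 3.10.9 in Python 3.11.15.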

Additional observations from a re-analysis of the deposited data

Results flagged for a closer look

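Some of the 381 genes had every W22 library below its 0 h libraries and every *nf-ya1* library above them. The choice largely fixed the W22 side, and for none of these genes was the difference between the genotypes tested. At 1 h against 0 h the log2 fold change in *nf-ya1* was 2.55 for Zm00001eb167720 and 2.30 for Zm00001eb167710, both with the Barwin domain, 3.95 for Zm00001eb256260 and 1.68 for Zm00001eb419390. The last of these did not pass the test in *nf-ya1* at 1 h, but did so with median-ratio scaling (2.76) and quantile normalization (2.55). At R2h against 0 h it was 2.16 for Zm00001eb167720, 2.69 for the ferredoxin Zm00001eb174420, 1.41 for the agglutinin Zm00001eb087980, 3.11 for Zm00001eb419390, 1.06 for the Bet v I gene Zm00001eb013990 and 0.52 for Zm00001eb256260. The last 2 did not pass the test in *nf-ya1* at R2h. In Zm00001eb167720, Zm00001eb013990 and Zm00001eb419390 W22 0 h replicate 3 had under 50% of the FPKM of the other W22 libraries at 0 h, and the part of that library in these results was not tested.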

How the results depend on the processing

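Of the 381 genes, the number called lower in *nf-ya1* at 1 h was 106 with median-ratio scaling, 109 with the treat test and 107 of 353 with median-ratio scaling of both choice and fit. At R2h against 0 h it was 50 with the treat test. Called higher at R2h against 1 h were 32 with median-ratio scaling (background 10.4%) and 37 with quantile normalization (background 13.9%). With the treat test 29 were, and with either scaling of both choice and fit 42. Called lower at R2h against 1 h were 12 with a mean FPKM of at least 5 and 3 with the treat test. With median-ratio scaling 61 were (background 16.0%) and with quantile normalization 50 (background 13.5%). Without W22 0 h replicate 3 in the choice 42 were, and with median-ratio scaling of both 43. A pseudocount of 0.1 in the choice gave 1045 genes, among them all 381. With median-ratio scaling before the choice 285 of the 381 (74.8%) were kept, and with quantile normalization 302. With a library left out, the choice gave 338 to 511 genes, and the 4 counts ran from 173 to 200 lower at 1 h, 124 to 142 lower at R2h, and at R2h against 1 h 66 to 77 higher and 18 to 29 lower. Same-numbered libraries deviated from their group means with correlations of −0.17 to 0.20, and differently numbered ones with −0.18 to 0.20. The labels do not say whether same-numbered libraries share an origin. With the replicate block the counts were 186, 132, 73 and 23.

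Of 114 single results, 69 kept direction and side of the threshold under every alternative, and those that reversed had not passed the test. Zm00001eb352570 at 1 h was 0.56 with median-ratio scaling and 0.65 with quantile normalization, Zm00001eb157900 at 1 h 0.29 and Zm00001eb264880 at R2h 0.10 with median-ratio scaling, and Zm00001eb273530 at R2h 0.099 and 0.0081 with pseudocounts of 0.01 and 0.1. With a library left out, log2 fold changes at 1 h ran from −0.21 to 0.72 in Zm00001eb014000, −0.32 to 0.27 in Zm00001eb077220, −0.24 to 0.88 in Zm00001eb283460 and −2.03 to 0.10 in Zm00001eb301260. At R2h they ran from −0.076 to 0.19 in Zm00001eb014010, −2.15 to 0.76 in Zm00001eb105200, −0.45 to 0.37 in Zm00001eb264880, −0.75 to 0.57 in Zm00001eb273530 and −0.35 to 1.78 in Zm00001eb301260. The cause was not tested. Depth is unknown, so how far it limits low genes cannot be given.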
